A study of Mus musculus with 12 samples.

Results

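The chaperones of the endoplasmic reticulum (ER) and regulators of its unfolded protein response are described here in 10 mouse genes: Hspa5, Hsp90b1, Dnajb9, Calr, Canx, Pdia3, Pdia4, Pdia6, Xbp1 and Ddit3. Their probe sets were those that the platform annotation maps to 1 of these genes and to no other, 24 probe sets of the 45101 on the array, for 10 of the 18193 genes with such a probe set. A filter on dim probe sets kept 27022, among them 22 of the 24, and each of the 10 genes had at least 1 kept probe set. The list was drawn up with results of these data in view, and Pdia4 among them was selected on its short term signals in knockdown and control arrays. The study reduced Zfp335, the mouse gene of the zinc finger protein ZNF335, in cells of the C57BL/6 strain that the labels describe as neurons, and asked which genes changed. The 12 arrays formed 4 groups of 3: short term Zfp335 knockdown (1 day), short term control knockdown (1 day), long term Zfp335 knockdown (5 days) and long term control knockdown (5 days). For all 4 groups the labels give knockdown at E14.5 and a developmental stage of E15.5, which are different embryonic days, and harvest at postnatal day 0, so only the time label tells the 1 day and 5 day samples apart. Short hairpin RNA and cell sorting are named in the design text, whereas titles speak of small interfering RNA. The labels do not say whether replicate arrays stem from different animals, so the p-values below measure a spread between arrays that may be technical.

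Secreted and membrane proteins fold in the ER. Hspa5 (BiP) and Hsp90b1 (GRP94) are its Hsp70 and Hsp90 chaperones and Dnajb9 (ERdj4) is a J-domain co-chaperone of Hspa5, while the lectin chaperones calreticulin (Calr) and calnexin (Canx) hold newly made glycoproteins. Pdia3, Pdia4 and Pdia6 belong to the protein disulfide isomerase family, which forms and rearranges disulfide bonds. When unfolded proteins build up, the sensors IRE1, PERK and ATF6 raise the output of such genes: IRE1 splices the mRNA of the transcription factor Xbp1, ATF6 and XBP1 act on the ER stress response element (ERSE) in chaperone promoters, and PERK acts through ATF4 on Ddit3 (CHOP), a transcription factor tied to cell death under lasting stress.

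The promoters were searched for the ERSE. This element is known from chaperone promoters, so its share among the members is not independent of how the list was made. The ERSE, searched as CCAAT and CCACG with 9 bases of any kind between them, on both strands in the 250 bases before each gene's annotated start, occurred in 5 of the 10 members (Hspa5, Hsp90b1, Calr, Canx and Pdia6), and in 37 of all 32851 promoters searched (0.113%). Pdia3, Pdia4 and Ddit3 held a stretch with 9 of its 10 fixed letters, and 1.32% of promoters hold a match at least as close. The best stretch had 8 fixed letters in Dnajb9 and 7 in Xbp1. The ERSE-II, searched as ATTGG and CCACG with 1 base between them, was found in these windows of 0 members and in 0.0304% of all promoters. A match is a description of letters, not a site shown to be bound. The 5 promoters with the whole element, and those of Pdia3 and Pdia4, whose values the results turn on, are given 5′ to 3′ on the strand of the gene, from RefSeq with build GRCm38.p6. Capitals mark the 19 bases of the element or of the closest stretch. In Calr the element, and in Pdia4 the closest stretch, lies on the opposite strand, and Hsp90b1 held 2 matches, of which the first is shown.
Hspa5, chr2:34771995-34772073, plus strand: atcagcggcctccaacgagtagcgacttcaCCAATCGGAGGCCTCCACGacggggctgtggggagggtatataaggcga
Hsp90b1, chr10:86705608-86705686, minus strand: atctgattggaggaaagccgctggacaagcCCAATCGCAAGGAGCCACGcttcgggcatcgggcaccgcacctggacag
Calr, chr8:84847045-84847123, minus strand: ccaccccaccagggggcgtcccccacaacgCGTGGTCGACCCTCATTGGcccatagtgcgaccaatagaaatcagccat
Canx, chr11:50325770-50325848, minus strand: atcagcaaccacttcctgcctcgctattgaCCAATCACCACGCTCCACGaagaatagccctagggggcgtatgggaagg
Pdia6, chr12:17266461-17266539, plus strand: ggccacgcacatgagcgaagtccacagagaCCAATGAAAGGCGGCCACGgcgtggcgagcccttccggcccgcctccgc
Pdia3, chr2:121413843-121413901, plus strand: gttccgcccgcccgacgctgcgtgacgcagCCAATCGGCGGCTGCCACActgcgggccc
Pdia4, chr6:47813572-47813650, minus strand: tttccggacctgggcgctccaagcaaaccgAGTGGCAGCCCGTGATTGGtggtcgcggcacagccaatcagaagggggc

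Several facts of the arrays bear on every value below. Zfp335, read by 1 probe set, had deposited signals of 136, 53.7 and 41.0 in the 1 day knockdowns against 139, 46.1 and 127 in the 1 day controls, and of 103, 34.3 and 151 in the 5 day knockdowns against 109, 150 and 179 in the 5 day controls. The groups overlapped at both times, and whether the probe set lies beside the stretch that the interfering RNA targets was not known. The 6 short term arrays fell into sets by their bacterial hybridisation control probe sets: knockdowns 2 and 3 and control 2 had a mean log2 control signal of 11.97 to 12.20, and knockdown 1 and controls 1 and 3 had 9.58 to 10.84. Short term arrays correlated at 0.923 to 0.989 within a set and at 0.597 to 0.775 between sets, so 2 of 3 knockdowns but 1 of 3 controls lay in the strong set. On long term knockdown 2 the Actb signal was 8.76 times higher at the 3′ than at the 5′ probe set and the Gapdh signal 3.90 times higher, where the other arrays had 1.51 to 2.91 (Actb) and 1.65 to 2.22 (Gapdh). All 5 day knockdowns and long term control 1 shared a scanner, long term controls 2 and 3 another. The short term arrays were all read on the second of these, so in the knockdowns scanner and time point cannot be told apart. The short term arrays came from a chip lot of their own, so lot and time point cannot be told apart, and among the long term arrays control 2 was the only one of its lot. At 1 day the knockdowns were all processed on 1 fluidics station and the controls all on another, so station and knockdown cannot be told apart there. At 5 days the stations divided the arrays as the scanners did. In 1 label field, the description, the long term samples carry the other group's name, but the scanner records carry codes that match the titles, and the titles are followed here. The 9 measured neuron markers of 10 listed averaged a log2 level of 11.01 to 11.79 on every array. The 10 neural progenitor markers averaged 10.70 to 11.13 in the 1 day knockdowns and 10.71 to 11.15 in the 1 day controls. At 5 days they averaged 10.11 to 10.76 in the knockdowns and 10.49 to 10.63 in the controls. The 12 microglia markers averaged 5.98 to 7.38 in the 1 day knockdowns, 6.06 to 8.03 in the 1 day controls, 7.65 to 10.64 in the 5 day knockdowns and 7.81 to 10.08 in the 5 day controls. No value in the whole table is 0 (the lowest is 0.56), so a listed signal does not by itself show that a marker was detected.

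After 1 day the 10 genes did not move as a group. Of the 10, 5 were higher and 5 were lower in the Zfp335 knockdowns, with log2 fold changes of -0.53 to 0.81 and a median of -0.01, where the median over the brightest probe set of all 12263 genes was -0.17. Beside them 11 of the 12 microglia markers were lower in the 1 day knockdowns (median -1.12), and their part in these values was not tested. The mean level of these markers went with the hybridisation control sets. It was 5.98 (knockdown 2), 5.98 (knockdown 3) and 6.06 (control 2) in the strong set. In the weak set it was 7.38 (knockdown 1), 8.03 (control 1) and 7.94 (control 3). A level here is log2 of the quantile-normalized signal plus 16, a scale that understates changes of dim probe sets, and each gene was read by its brightest kept probe set. Because the list was chosen with this comparison in view, these values are descriptive and carry no test. Among the 10 genes the knockdown and control arrays did not overlap in 1, Pdia4, which was higher, against 1.7% of all genes in either direction, 0.522% higher and 1.17% lower.

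Pdia4, a disulfide isomerase with several thioredoxin-like domains, had deposited signals of 101, 177 and 153 in the 1 day knockdowns against 84.3, 136 and 43.6 in the 1 day controls. The lowest knockdown array lay below control 2 on the deposited scale, and after normalization all 3 knockdown levels (7.27, 7.74 and 7.42) lay above the control levels (6.98, 7.18 and 5.84). The log2 fold change was 0.81 (SE 0.51, 3 arrays a group), and without control 3, the lowest array, it was 0.40. Within the strong hybridisation control set it was 0.40 (SE 0.76), and within the weak set 0.86 (SE 0.76). The strong set averaged 0.75 above the weak set in Pdia4 over the 6 short term arrays.

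Hspa5, the Hsp70 chaperone that also keeps the stress sensors inactive, had 1409, 1233 and 1336 in the 1 day knockdowns against 1597, 1550 and 1151 in the 1 day controls, a log2 fold change of -0.18 (SE 0.24). Hsp90b1 had 607, 734 and 777 in the knockdown arrays against 647, 723 and 701 in the control arrays (-0.07, SE 0.20). Dnajb9 had 575, 643 and 677 in the knockdown arrays against 484, 675 and 474 in the control arrays (0.13, SE 0.22). In all 3 chaperones the groups overlapped.

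By their brightest probe sets the lectin chaperones and the other isomerases were as close. Calr had 3673, 4977 and 4971 in the 1 day knockdowns and 3929, 5324 and 3738 in the 1 day controls (log2 fold change 0.01, SE 0.27). Canx had 1405, 2375 and 2230 in the knockdown arrays and 1291, 2182 and 1456 in the control arrays (0.15, SE 0.20). In the brightest probe sets of Calr, Canx and Pdia6 all 3 strong arrays lay above all 3 weak ones, as in 21.5% of all genes. Other probe sets of these genes were mixed. A Canx probe set had levels of 10.89, 10.65 and 10.58 on the strong arrays and 10.21, 9.997 and 10.34 on the weak ones. A Calr probe set had 12.48, 12.52 and 12.57 on the strong arrays and 12.35, 12.34 and 12.43 on the weak ones. By contrast another Canx probe set had 7.65, 7.65 and 7.86 on the strong arrays and 9.05, 9.09 and 9.16 on the weak ones. In another Calr probe set and the other of Pdia6 the strong and weak arrays overlapped. That Calr probe set had 11.89, 11.90 and 11.90 in the knockdown arrays, just below 11.93, 12.02 and 11.91 in the control arrays. Pdia6 had 558, 1301 and 1311 in the knockdown arrays and 672, 1266 and 612 in the control arrays. Its log2 fold change of 0.16 (SE 0.30) was 0.04 within the strong set and -0.22 within the weak set. Pdia3, which works on glycoproteins bound by the lectin chaperones, had 722, 750 and 805 in the knockdown arrays and 739, 790 and 656 in the control arrays (-0.04, SE 0.33). Other probe sets gave knockdown effects of 0.28 (SE 0.24) and -0.59 (SE 0.44) in Canx and -0.52 (SE 0.37) in Pdia6. They gave 0.31 (SE 0.31) in Pdia3, and 0.0023 (SE 0.26) and -0.05 (SE 0.31) in Calr. In Canx, Pdia6 and Pdia3 the direction thus differed between probe sets.

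By brightest probe set the transcription factors were the lowest of the 10 in the knockdown against control comparison at 1 day. Xbp1 had 443, 266 and 299 in the 1 day knockdowns against 537, 313 and 419 in the 1 day controls, and its log2 fold change was -0.53 (SE 0.41). With 1 array left out it ran from -0.95 (without knockdown 1) to -0.27 (without knockdown 2), with -0.91 without control 2 and -0.28 without control 1. Ddit3 had 246, 228 and 235 in the knockdown arrays against 256, 285 and 273 in the control arrays on the deposited scale, where the groups did not overlap, and after normalization they overlapped at -0.37 (SE 0.26). In both genes, and in Pdia3, the 3 strong arrays lay below the 3 weak ones, as in 52.9% of all genes. Xbp1 averaged a level of 8.74 in the strong set and 9.98 in the weak set, a larger gap than that between knockdown and control, and within the sets its knockdown effect was -0.19 (strong, SE 0.30) and -0.08 (weak, SE 0.30). Ddit3 had -0.39 within the strong set and -0.04 within the weak set (SE 0.31 in each).

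**Figure D1:**
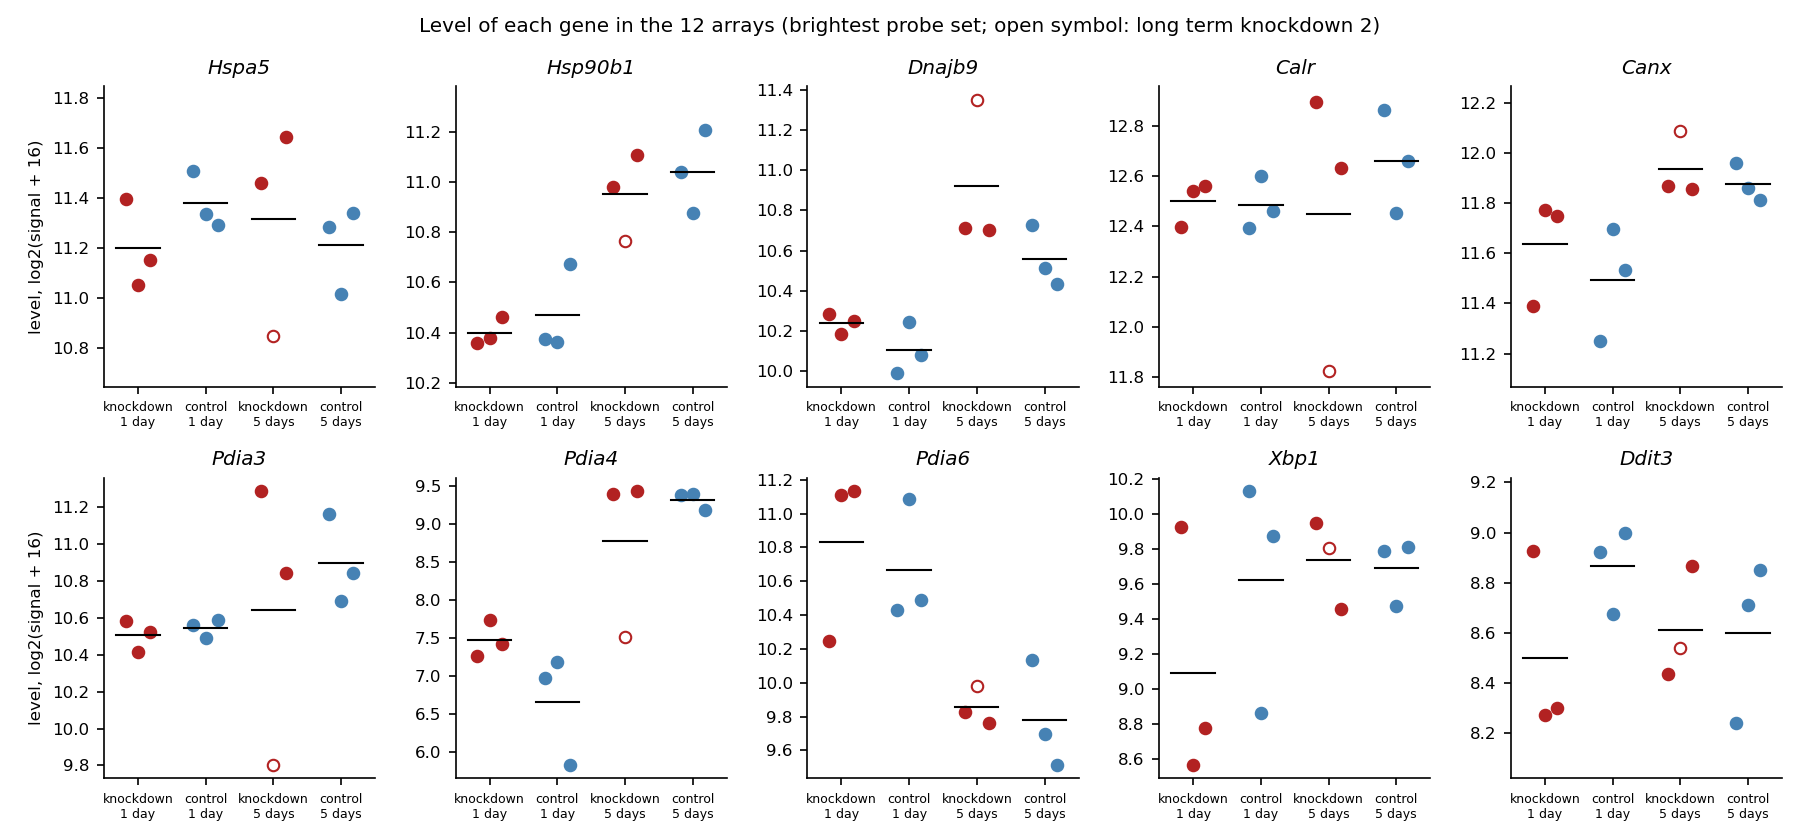
Level of each of the 10 genes on every array, as log2 of the normalized signal plus 16, by group: red points are knockdowns, blue points controls, bars group means of 3 arrays, and the open red point is long term knockdown 2. Each panel has its own vertical range, so levels are not compared between genes. The open point lies below the other 5 long term arrays in Hspa5, Hsp90b1, Calr, Pdia3 and Pdia4, and the Pdia4 controls lie far higher at 5 days than at 1 day.

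After 5 days none of the 10 genes was told apart between Zfp335 knockdowns and controls, given the spread between arrays in the fit. Of the 10 genes, 6 were higher and 4 lower in the 5 day knockdowns, with a median log2 fold change of 0.03 against 0.01 over all genes. In limma's moderated test 0 passed an adjusted p of 0.05 (0 called, 0%, of 27022 probe sets). An unadjusted limma p below 0.05 was reached by 34 probe sets (0.126%), none of them of the 10 genes. Without any effect, a share of 0.05 of unadjusted p-values would lie below 0.05. The test was thus strict here, and 0 calls do not show that the genes were unchanged. The fit's spread also takes in the short term sets and long term knockdown 2, and their part in this was not tested. In none of the 10 did the groups separate, against 3.31% of all genes, 1.66% in each direction. The smallest unadjusted limma p was 0.134, for Dnajb9, and each adjusted p was 0.999934. The standard errors of 0.20 to 0.51 left intervals that reach from -1.66 to 0.95 over the genes, where Pdia4 gave the lower end and Xbp1 the upper, so the precision differed between the genes.

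Dnajb9 had deposited signals of 2595, 3231 and 2501 in the 5 day knockdowns against 2661, 2053 and 1999 in the 5 day controls, a log2 fold change of 0.36 (SE 0.22; 95% interval -0.13 to 0.85). Long term knockdown 2 was its highest array, and without it the value was 0.15. Hspa5 had 4219, 2398 and 4561 in the knockdown arrays against 3807, 2924 and 3782 in the control arrays (0.10, SE 0.24), and without knockdown 2 the value was 0.34 (SE 0.20, limma, adjusted p = 0.999983). Hsp90b1 had 3133, 2285 and 3256 in the knockdown arrays against 3266, 2654 and 3433 in the control arrays (-0.09, SE 0.20), with 0.0038 without knockdown 2. The direction of Hsp90b1 thus turned with 1 array, at values near 0.

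Pdia4, Pdia3 and Calr changed direction with that array. Pdia4 had 999, 220 and 987 in the 5 day knockdowns against 1022, 869 and 748 in the 5 day controls: knockdowns 1 and 3 lay among or near the controls and knockdown 2 far below them. Its log2 fold change of -0.54 (SE 0.51) was 0.10 (SE 0.37) without knockdown 2. Pdia3 had 3797, 1197 and 2757 in the knockdown arrays against 3533, 2351 and 2658 in the control arrays (-0.25, SE 0.33), and 0.17 without knockdown 2. The other Pdia3 probe set gave 0.21 (SE 0.31) with all arrays. Calr, a lectin chaperone, had 8758, 4142 and 7803 in the knockdown arrays against 8804, 7002 and 8113 in the control arrays (-0.21, SE 0.27), and 0.10 without knockdown 2. By brightest probe set each of these 3 genes was lowest on knockdown 2 among the 6 long term arrays.

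By brightest probe set Canx, Pdia6, Xbp1 and Ddit3 had the smallest differences. Canx had 5345, 4723 and 5191 in the 5 day knockdowns against 5776, 5042 and 5089 in the 5 day controls (log2 fold change 0.06, SE 0.20, and -0.02 without knockdown 2). Pdia6 had 1389, 1363 and 1286 in the knockdown arrays and 1762, 1115 and 986 in the control arrays (0.07, SE 0.30). Xbp1 had 1523, 1200 and 1013 in the knockdown arrays and 1392, 929 and 1252 in the control arrays (0.05, SE 0.41). Other probe sets gave -0.31 to 0.14 in Xbp1, and 0.01 and 0.19 in Canx. Ddit3 had 442, 480 and 631 in the knockdown arrays and 433, 493 and 564 in the control arrays (0.01, SE 0.26). The probe sets measure total Xbp1 transcript as far as the annotation tells, so the spliced form was not read here.

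Long term knockdown 2 lay below all 5 other long term arrays in 5 of the 10 genes (Hspa5, Hsp90b1, Calr, Pdia3 and Pdia4) and above them in 2 (Dnajb9 and Canx), by normalized levels. Over all genes the shares were 33.7% and 36.1%. The place of Canx turns with the scaling, since its deposited signal of 4723 on that array was the lowest of the 6. Its log2 level minus the mean of the other 5 arrays was -1.84 in Pdia4, -1.16 in Pdia3, -0.88 in Calr and 0.73 in Dnajb9. Without this array 9 of the 10 genes were higher in the 5 day knockdowns and 1 was lower, with values of -0.02 to 0.34, a median of 0.07 and 0 past the threshold. Among the 9, Hsp90b1 (0.0038), Xbp1 (0.010) and Pdia6 (0.011) were near 0. The share of all genes that were higher in this fit is not given here, so the count is not read as a shared rise. The high 3′ to 5′ ratios of long term knockdown 2 move with these values, and their part in the result was not tested. With the scanner as a block, which leaves long term control 1 as the only control beside the knockdowns, the log2 fold changes of the 10 genes included -0.60 for Pdia4, -0.52 for Pdia3, -0.41 for Calr and 0.37 for Ddit3, all without a call.

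**Figure D2:**
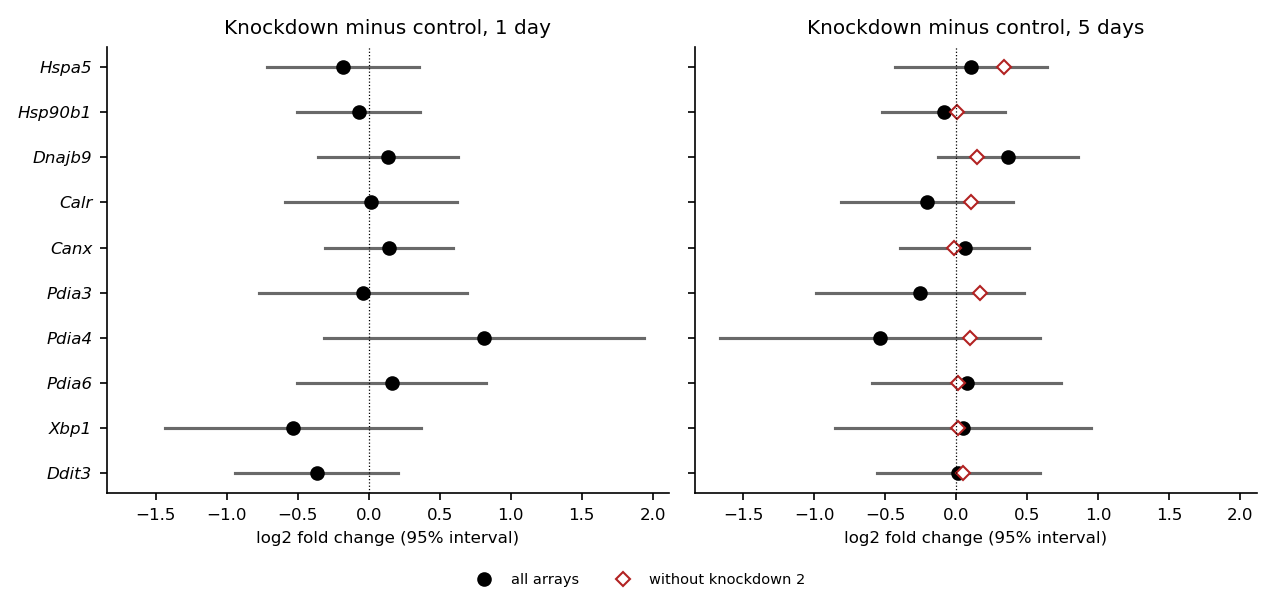
Log2 fold change of each gene, knockdown minus control, with its 95% interval from the fit over all 12 arrays (black), at 1 day (left) and at 5 days (right), where red diamonds give the value without long term knockdown 2. Every interval spans 0, and the diamonds of Pdia4, Pdia3 and Calr lie right of 0 where the black points lie left of it.

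The difference between the knockdown effects at 5 days and at 1 day was tested as an interaction. It passed the threshold in 0 of the 10 genes and in 0 of 27022 probe sets (0%). An unadjusted limma p below 0.05 was reached by 55 probe sets (0.204%), so this test was strict as well. Pdia4 had the largest difference among the 10, -1.35 (SE 0.72, limma, adjusted p = 0.999986), made of -0.54 at 5 days and 0.81 at 1 day, and it was -0.71 (SE 0.49) without long term knockdown 2. The short term values that entered this difference are those with which Pdia4 was named.

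The time points were compared within the controls and within the knockdowns. In control cells, Pdia4 was higher at 5 days than at 1 day by 2.65 on the log2 scale (SE 0.51), a 6.27-fold difference (95% interval 2.87 to 13.7), and after quantile normalization it was the only one of the 10 genes past the threshold (limma, adjusted p = 0.0214). The count rests on the scaling: 9 of the 10 genes passed as deposited and 7 with arrays scaled to equal medians, Pdia4 among them each time. Under these scalings 13135 and 9321 of the 27022 kept probe sets passed as well. After quantile normalization 3.78% of all genes passed, 464 of 12263, and 3.28% of the kept probe sets. The normalized levels of Pdia4 were 9.37, 9.39 and 9.18 in the 5 day controls against 6.98, 7.18 and 5.84 in the 1 day controls, and the deposited signals 1022, 869 and 748 in the 5 day controls against 84.3, 136 and 43.6 in the 1 day controls. The same 1 day controls, with their low control 3, stood behind the difference for which Pdia4 was named, so this value is not independent of that choice. The call was lost without short term control 3 (2.23, adjusted p = 0.0903) and without long term control 1, 2 or 3 (adjusted p 0.0752 to 0.101), all in limma. Long term control 1 is the only control on its scanner. A fit blocked on the scanner was therefore the same as leaving out that array (2.62, limma, adjusted p = 0.0928) and is no further check.

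In the Zfp335 knockdowns Pdia4 had levels of 9.39, 7.51 and 9.43 at 5 days against 7.27, 7.74 and 7.42 at 1 day. Long term knockdown 2 lay inside the 1 day range and the other 2 long term arrays far above it. The log2 fold change over time was 1.30 (SE 0.51, limma, adjusted p = 0.146), and 1.93 (SE 0.37, adjusted p = 0.0302) without long term knockdown 2. No gene of the 10 passed the threshold in the knockdowns with all arrays after quantile normalization, where 7.14% of all genes and 5.98% of the kept probe sets did. As deposited 8 of the 10 passed, beside 13533 of the 27022 kept probe sets. At equal medians 8 of the 10 passed, beside 10408 probe sets.

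Differences of the other chaperones over time did not pass the threshold after quantile normalization, but most did under the other scalings. Under those scalings 9321 to 13533 of the 27022 kept probe sets passed too. As deposited the controls gave 2.14 for Hsp90b1 (limma, adjusted p = 2.8e-05), 2.01 for Dnajb9 (4.2e-05), 1.71 for Canx (0.00029) and 1.93 for Pdia3 (0.0012). At equal medians they gave 1.99, 1.86, 1.56 and 1.77 (limma, adjusted p = 0.00088, 0.00036, 0.0013 and 0.010). In the controls the 5 day and 1 day arrays separated with 5 days higher in 5 of the 10 genes (Hsp90b1, Dnajb9, Canx, Pdia3 and Pdia4), against 20.1% of all genes, and lower in 1 (Pdia6), against 13.9%. In the knockdowns they separated upward in 3 (Hsp90b1, Dnajb9 and Canx; 18.3% of all genes) and downward in Pdia6 (9.2%). Hsp90b1 had levels of 11.04, 10.88 and 11.21 in the 5 day controls against 10.37, 10.36 and 10.67 in the 1 day controls, a difference of 0.57 (SE 0.20, limma, adjusted p = 0.155), and 0.55 in the knockdowns (SE 0.20, adjusted p = 0.116). Dnajb9 differed by 0.45 in the control arrays (SE 0.22, limma, adjusted p = 0.340) and by 0.68 in the knockdowns (SE 0.22, adjusted p = 0.0960). Canx differed by 0.38 in the control arrays and 0.30 in the knockdowns (SE 0.20 in each), and Pdia3 by 0.35 and 0.14 (SE 0.33 in each).

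Pdia6, an isomerase that also shuts off IRE1 signalling, ran the other way. Its levels were 10.13, 9.70 and 9.52 in the 5 day controls against 10.43, 11.08 and 10.49 in the 1 day controls, a difference of -0.89 (SE 0.30, limma, adjusted p = 0.153). In the knockdowns it was -0.97 (SE 0.30, adjusted p = 0.0822), and -1.27 (adjusted p = 0.0119) without short term knockdown 1. Hspa5 and Ddit3 differed little over time: Hspa5 by -0.17 in the control arrays and 0.12 in the knockdowns (SE 0.24 in each), Ddit3 by -0.27 and 0.11 (SE 0.26 in each). Calr differed by 0.17 and -0.05 (SE 0.27 in each) and Xbp1 by 0.07 and 0.65 (SE 0.41 in each).

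Several of these directions turned with the scaling. Trimmed means of the deposited signal were 451 to 529 on the long term arrays against 186 to 239 on the short term arrays. As deposited, the median of all kept probe sets was higher at 5 days by 0.86 in the control arrays and 0.85 in the knockdowns. Set against that median, Pdia4 had 2.65 in the control arrays after quantile normalization, 2.34 as deposited and 2.36 with arrays scaled to equal medians, and in the knockdowns 1.24, 1.14 and 1.15. In the control arrays Hsp90b1 (0.57 to 1.28), Dnajb9 (0.45 to 1.15), Canx (0.38 to 0.85) and Pdia3 (0.35 to 1.06) were also above the median under all 3 scalings. So were Xbp1 (0.07 to 0.61) and Calr (0.02 to 0.17). In the knockdowns Calr lay below the median under all 3 (-0.11, -0.31 and -0.31), and the others named here, Hspa5 and Ddit3 lay above it. Pdia6 lay below the median under all 3, by -0.89, -0.24 and -0.25 in the control arrays, though its unadjusted direction turns to 0.62 as deposited. Ddit3 in the control arrays lay below the median under all 3 as well (-0.27, -0.04 and -0.04). Hspa5 in the control arrays lay below the median after quantile normalization (-0.17) and above it as deposited (0.42) and at equal medians (0.41).

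**Figure D3:**
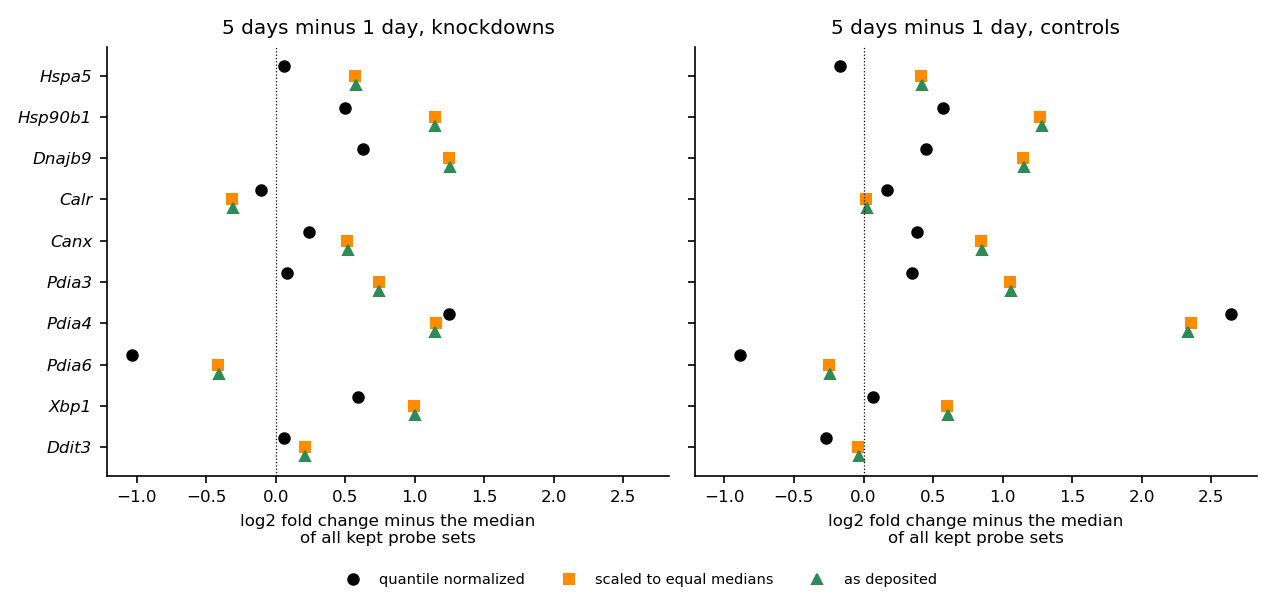
Log2 fold change of each gene from 1 day to 5 days, minus the median of all kept probe sets, in the knockdowns (left) and controls (right), with values quantile normalized (black), scaled to equal medians (orange) or as deposited (green). Pdia4 lies right of 0 and Pdia6 left of it in both panels under all 3 scalings, and the Hspa5 points of the controls lie on both sides of 0.

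Different probe sets of a gene did not always give the same value over time. The brightest Hsp90b1 probe set was higher at 5 days by 0.57 in the control arrays while its other one was lower, at -0.59 (SE 0.24), with 0.55 and -0.65 in the knockdowns. Pdia3 had 0.35 for its brightest probe set and -0.55 for the other in the controls. The Pdia6 probe sets gave -0.89 and -0.88 in the control arrays but -0.97 and -0.25 in the knockdowns. The 3 Calr probe sets stayed between 0.17 and 0.23 in the control arrays, and the 4 of Xbp1 between -0.03 and 0.45. Pdia4 had 1 kept probe set, and its other one, which did not pass the filter, had deposited signals of 1.00 to 12.7 on the 12 arrays.

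**Figure D4:**
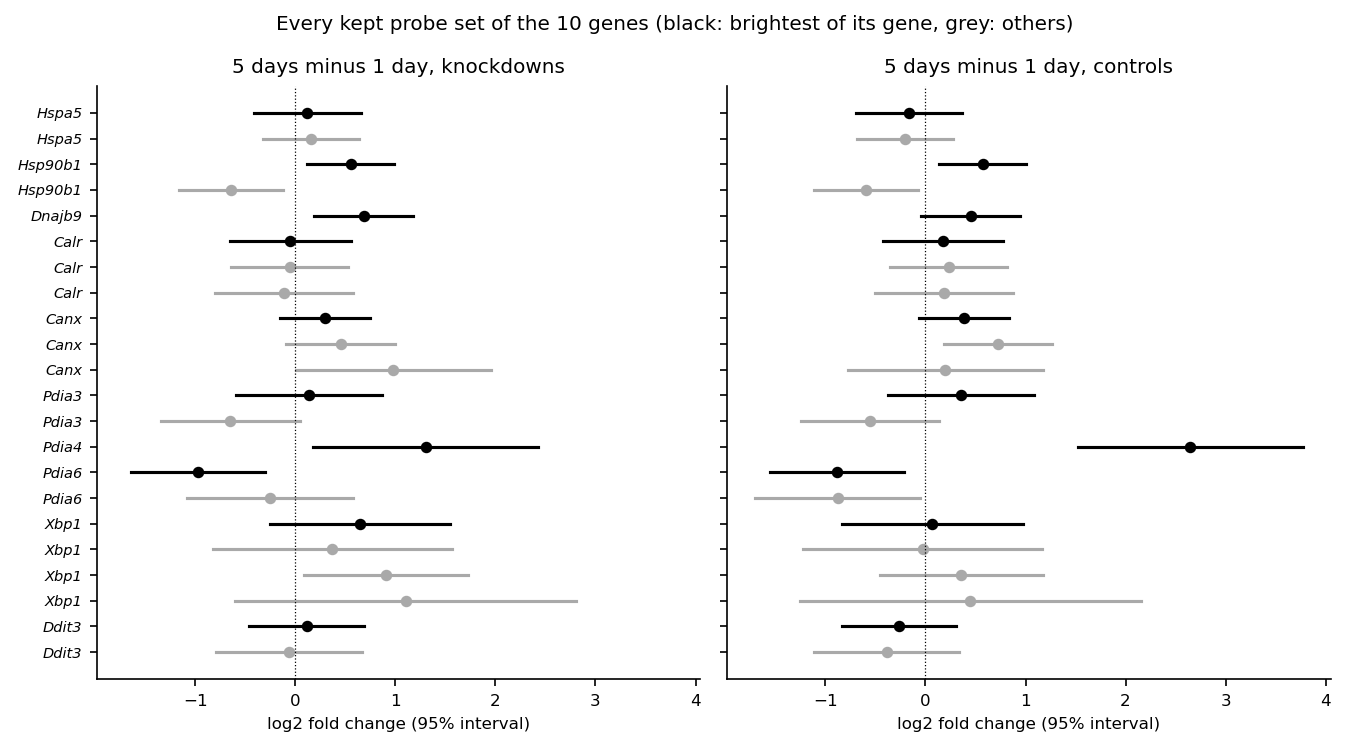
Log2 fold change from 1 day to 5 days with its 95% interval for each of the 22 kept probe sets of the 10 genes, in the knockdowns (left) and controls (right); black marks the brightest probe set of a gene and grey the others. The Hsp90b1 pair lies on opposite sides of 0 in both panels, while the 3 Calr and the 2 Hspa5 probe sets lie close together.

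Markers of some other cells had higher levels at 5 days, beside these values. Of the 12 microglia markers 11 were higher at 5 days in the knockdowns and 11 in the control arrays, with medians of 2.65 and 1.47 on the log2 scale. All 13 measured endothelial and pericyte markers of 15 listed were higher at 5 days in the controls and 11 in the knockdowns. Their mean level was 7.43 to 10.49 in the 5 day knockdowns, 7.45 to 9.95 in the 5 day controls, 6.82 to 7.53 in the 1 day knockdowns and 6.90 to 7.68 in the 1 day controls. The 3 measured choroid plexus markers of 10 listed averaged 6.70 to 7.24 in the 5 day knockdowns, 7.0 to 7.9 in the 5 day controls, 6.48 to 8.25 in the 1 day knockdowns and 6.64 to 7.84 in the 1 day controls, so their ranges overlapped. The 7 measured meninges and fibroblast markers of 10 listed averaged 7.17 to 8.27 in the 5 day knockdowns, 6.91 to 8.01 in the 5 day controls, 6.80 to 7.58 in the 1 day knockdowns and 6.62 to 7.55 in the 1 day controls. Of these markers 0 microglia, 1 endothelial and pericyte and 1 meninges and fibroblast gene passed the threshold in each comparison over time. Of the choroid plexus markers 1 passed in the knockdowns and 0 in the controls. Among the 10 neural progenitor markers 6 were lower at 5 days in the controls and 6 in the knockdowns, with medians of -0.30 and -0.43. In each comparison 2 of them passed as lower, against 1.44% (controls) and 1.97% (knockdowns) of all genes, and in the knockdowns 1 passed as higher. Among the 9 neuron markers 5 were higher at 5 days in the controls and 6 in the knockdowns, with 0 calls. In such bulk samples fewer cells of a type and less RNA per cell cannot be told apart, and the part of these cells in the Pdia4 difference was not tested.

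The rest of the pathway was read through 6 lists, written with earlier results of these data known: other ER folding factors, sensors and signalling proteins of the unfolded protein response, ATF4 and CHOP targets, ER-associated degradation, ER translocation with COPII transport, and, for contrast, cytosolic heat shock proteins. None of their genes passed the threshold between knockdown and control at either time, as for all genes (0%). At 1 day the median log2 fold changes of the 6 lists lay between -0.27 and -0.10 and that of all genes at -0.17. At 5 days they lay between -0.11 and 0.06, with 0.01 for all genes.

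Of all genes, 32.7% were higher and 67.3% lower in the knockdowns at 1 day, and 51.6% were higher and 48.4% lower at 5 days. The groups separated in 1.7% of all genes at 1 day and 3.31% at 5 days. Among the ER folding factors, 4 of 29 were higher and 25 lower at 1 day, where the normalized levels separated for 2, though their deposited signals overlap: Ganab, the catalytic subunit of glucosidase II (840, 776 and 929 in the 1 day knockdowns against 997, 1015 and 893 in the control arrays; -0.26, SE 0.24), and Prdx4, the peroxiredoxin of the ER (700, 811 and 845 in the knockdown arrays against 827, 905 and 923 in the control arrays; -0.25, SE 0.25). At 5 days 12 were higher and 17 lower, and 3 separated upward. Among these were Clgn, calmegin (0.40, SE 0.27, with 182, 245 and 221 in the 5 day knockdowns and overlapping deposited signals of 230, 142 and 75.6 in the control arrays), and Sil1, the nucleotide exchange factor of Hspa5 (644, 618 and 674 in the 5 day knockdowns against 555, 492 and 521 in the control arrays; 0.22, SE 0.22). Edem3, a mannosidase-like protein of ER-associated degradation, had 2245, 2518 and 2240 in the 5 day knockdowns against 2187, 1553 and 1489 in the control arrays (0.44, SE 0.22, limma, adjusted p = 0.999934). Clgn had 0.13 and Edem3 0.20 once the scanner was a block. Ube2j1, the ubiquitin-conjugating enzyme of the same pathway, had 0.40 (SE 0.48), and 10 of the 18 degradation genes were higher at 5 days against 4 of 18 at 1 day.

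In transport, 13 of 29 genes were higher at 5 days and 5 at 1 day. Sec24d, a cargo subunit of the COPII coat, had 1112, 1106 and 898 in the 5 day knockdowns against 911, 699 and 624 in the 5 day controls (0.41, SE 0.49), and Ssr1, a subunit of the translocon-associated complex, had 0.18 (SE 0.17), and 0.05 with the scanner as a block. Stt3a, the catalytic subunit of an oligosaccharyltransferase, separated downward at 1 day with -0.08 (SE 0.20). The deposited signals of Sec24d, Ssr1 and Stt3a overlapped between the groups. Of 16 cytosolic heat shock genes, 8 were higher and 8 lower at 5 days: Chordc1, an Hsp90 co-chaperone, separated upward (0.27, SE 0.20) and Hspa4, an Hsp110 nucleotide exchange factor, downward (-0.26, SE 0.19). The 14 sensor and signalling genes and the 14 measured ATF4 and CHOP targets had no gene with separate groups at either time. Of the targets 5 were higher and 9 lower at 5 days, as at 1 day, and of the sensors 9 were higher and 5 lower at 5 days against 4 higher and 10 lower at 1 day.

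**Figure D5:**
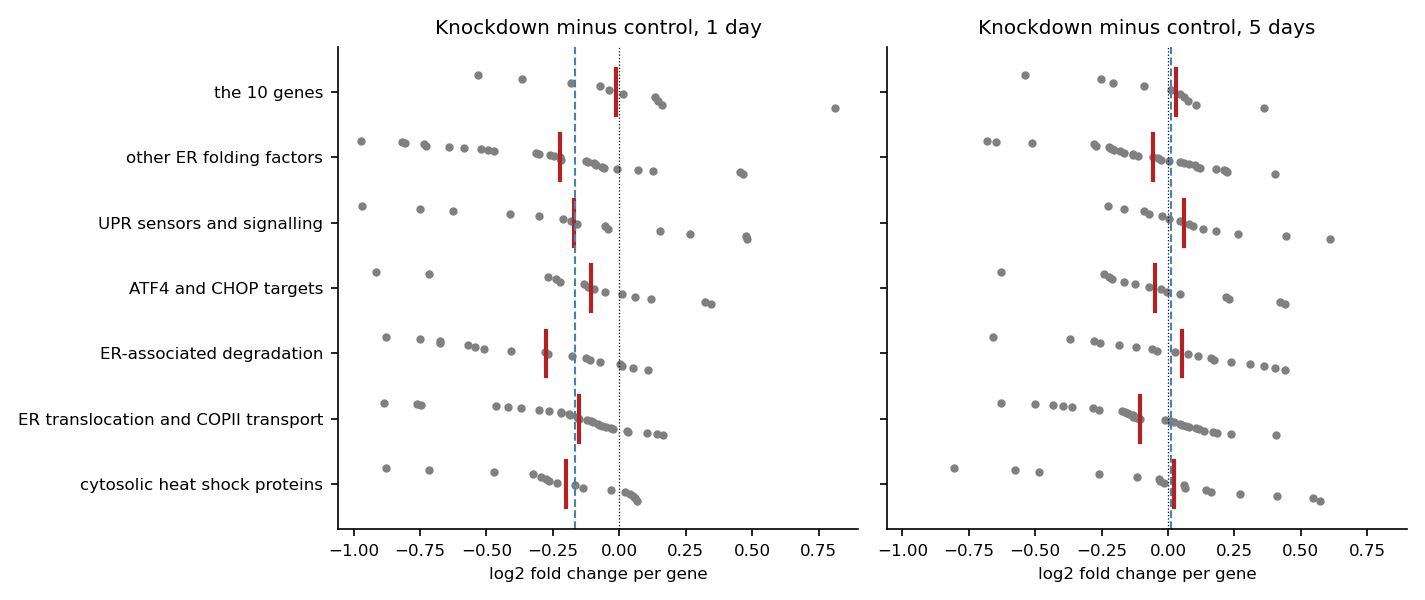
Log2 fold change, knockdown minus control, of every measured gene of the 10 and of the 6 other lists (grey points), with list medians (red bars) and the median of all 12263 genes (blue dashed line), at 1 day (left) and 5 days (right). The list medians lie near that of all genes, from -0.27 to -0.01 at 1 day and from -0.11 to 0.06 at 5 days.

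Over time a few pathway genes passed the threshold, most in the knockdowns, where the shares among all genes were 5.18% higher and 1.97% lower. In the knockdowns at 5 days against 1 day, 1 of 29 folding factors passed: Dnajc3 (P58IPK), which restrains PERK, with 2472, 1600 and 1972 at 5 days against 350, 424 and 377 at 1 day (log2 fold change 0.99, SE 0.21, limma, adjusted p = 0.0247). Of 14 sensor and signalling genes Mbtps2, the site-2 protease that cuts ATF6, passed (1.64, SE 0.42, adjusted p = 0.0491), and of 14 ATF4 and CHOP targets Cebpb, a transcription factor that dimerizes with CHOP, with 932, 639 and 517 at 5 days against 87.6, 38.3 and 40.5 at 1 day (3.00, SE 0.60, adjusted p = 0.0204). Edem3 (1.06, SE 0.22, limma, adjusted p = 0.0258) and the ER lectin Erlec1 (1.63, SE 0.40, adjusted p = 0.0428) were the 2 of 18 in degradation.

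Of 29 transport genes 3 passed in the knockdowns over time: Sec24d (2.01, SE 0.49, limma, adjusted p = 0.0402), Ssr3 (0.78, SE 0.19, adjusted p = 0.0422) and Sec61b, a subunit of the translocon channel, which was lower (-0.85, SE 0.21, adjusted p = 0.0463). Sec61b had deposited signals of 3327, 2140 and 2561 at 5 days against 2386, 1785 and 1929 at 1 day, so its direction turns without normalization (0.38), and against the median of all probe sets it stayed lower (-0.91 normalized, -0.47 as deposited, -0.48 at equal medians). Hspa2 (2.85, SE 0.39, limma, adjusted p = 0.00322) and St13 (0.76, SE 0.19, adjusted p = 0.0439) were the 2 of 16 among the cytosolic heat shock genes. Hspa2, an Hsp70 known from the testis, had 1614, 1250 and 2240 at 5 days against 138, 111 and 143 at 1 day. Its call held in each of the 6 fits that left out 1 of these arrays, and each other call named here in 1 or 2 of 6. With the scanner as a block 0 of the 10 calls held (limma, adjusted p = 0.344 for Hspa2 and 0.723 for the others), and Dnajc3 had 0.64 and Edem3 0.71. Scanner and time go together in the knockdowns, so that fit takes the scanner difference from long term control 1 against long term controls 2 and 3. It cannot decide whether the calls hinge on the scanner. As deposited and at equal medians 9 of the 10 held, all but Sec61b.

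In the controls over time 2 genes of these lists passed, where 2.34% of all genes were called higher and 1.44% lower: Ssr3, of the translocon-associated complex, with 7174, 6235 and 6393 at 5 days against 1471, 2022 and 1063 at 1 day (0.87, SE 0.19, limma, adjusted p = 0.0377), and Hspa2 (2.03, SE 0.39, adjusted p = 0.0213). Leaving out 1 array kept the Hspa2 call in 1 of 6 fits and the Ssr3 call in 0 of 6. The scanner as a block, which in the controls is the same as leaving out long term control 1, lost both calls (limma, adjusted p = 0.171 for Ssr3 and 0.0786 for Hspa2). Dnajc3 (0.74, limma, adjusted p = 0.0848), Edem3 (0.68, adjusted p = 0.144), Mbtps2 (1.17, adjusted p = 0.181) and Cebpb (1.64, adjusted p = 0.183) had 5 day arrays wholly above the 1 day arrays in the controls as well, as did Edem1, a degradation factor (1.21, adjusted p = 0.412). Prkcsh, the other glucosidase II subunit (-0.76), the stress kinase gene Map3k5 (-0.86) and Ddit4 (-0.75) lay wholly below after quantile normalization, with adjusted limma p of 0.241 to 0.373. As deposited these 3 turned to 0.70, 0.26 and 0.12, and Prkcsh lay wholly above, with 943, 934 and 957 at 5 days against 759, 493 and 508 at 1 day. Against the median of all probe sets they stayed lower, by -0.16, -0.61 and -0.74 as deposited.

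The gene whose level followed that of Hspa5 most closely over the 12 arrays was Ncan, which encodes the brain proteoglycan neurocan (Pearson r 0.85). BC037032 (0.84), Mief2, a mitochondrial dynamics protein (0.84), 2610507B11Rik (0.82) and Sec14l1 (0.80) came next. The other members ranked far lower: Pdia3 had r 0.62, Calr 0.57, Ddit3 0.45, Xbp1 0.33, Hsp90b1 0.16, Pdia4 0.14, Pdia6 -0.18, Dnajb9 -0.34 and Canx -0.47. These coefficients describe 12 arrays that share lots, scanners and the hybridisation control sets, and no test was made of them. Hspa5 itself had log2 group means of 11.32 ± 0.42 in the 5 day knockdowns, 11.21 ± 0.17 in the 5 day controls, 11.20 ± 0.18 in the 1 day knockdowns and 11.38 ± 0.11 in the 1 day controls (SD, n = 3). The lowest and highest of these means, those of the 1 day knockdowns and controls, differed by -0.18 (SE 0.24).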

How the data were processed

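Biotin-labelled RNA of 12 samples was measured on Affymetrix arrays, per the labels' protocols. The deposited table gives linear intensities of 45101 probe sets. The sources used here do not give how the authors summarised probes, corrected background or scaled arrays. Intensities were quantile normalized, 16 was added and log2 taken. After dropping 64 control probe sets, those in the top 60% by mean level were kept (27022). limma 3.58.1 (R 4.3.3) fitted the 4 group means over 12 arrays (8 residual degrees of freedom), with Benjamini-Hochberg adjustment over kept probe sets and a threshold of 0.05. It was tested on simulated data with independent noise of 1 spread and no array sets, scanners or lots. That test does not show how the fit behaves on these arrays. Exact tests of 3 against 3 arrays cannot go below 0.1 and were not used. The members, the lists and the named genes (all members; per list and comparison, at most 3 past the threshold, else at most 2 with separate groups; the 5 most like Hspa5) were chosen with earlier results of these data known. Instrument files gave scanner, lot and fluidics station. No identical arrays were found: at most 0.397% of values matched in any pair. Replicate numbers did not pair the samples (correlations of same-numbered deviations 0.92, 0.90 and -0.42 at 1 day, -0.13, -0.02 and 0.10 at 5 days). Alternatives covered scale, pseudocount, filter, probe sets, blocks, array weights and each array left out.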

Additional observations from a re-analysis of the deposited data

How the results depend on the processing

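Between knockdown and control, 0 of the 10 genes and 0 probe sets passed the threshold at 5 days under every alternative run, and at 1 day and for the difference of the effects under every alternative except array weights. Array weights gave 21029 probe sets and 5 of the 10 genes at 1 day, 10712 and 2 for the difference, 16962 and 8 for the controls over time, and 13442 and 4 for the knockdowns over time, but their estimation did not converge. Over time the numbers of probe sets called, 886 between control arrays and 1616 between knockdown arrays, became 13135 (controls) and 13533 (knockdowns) as deposited (9 and 8 of the 10 genes), 9321 and 10408 with arrays scaled to equal medians (7 and 8 genes), 1702 and 3026 with no filter, and 279 and 44 with the scanner as a block (0 genes in the controls). In the controls the scanner block is the same fit as leaving out long term control 1, and in the knockdowns it takes the scanner difference from the long term controls alone. The hybridisation control set as a block gave 3457 in the controls, and the mean of a gene's probe sets 2 of the 10 genes there. With 1 array left out the counts ran from 247 to 614 (controls) and from 341 to 7727 (knockdowns), with 0 to 1 of the 10 genes in each. In the controls every array but short term control 1 moved the count by over 1.5 times when left out, and in the knockdowns all 6 did (7727 without short term knockdown 1).

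Directions turned as follows. Of these genes only Sec61b was called as reported (lower in the knockdowns over time). The turned values were themselves called for Hspa5 as deposited and at equal medians, Ddit3 and Prkcsh as deposited, and Xbp1 with array weights, all in the controls over time. As deposited, Canx was -0.059 between knockdown and control at 5 days, Hspa5 1.29, Pdia6 0.62 and Ddit3 0.83 in the controls over time, and Calr 0.54 and Pdia6 0.44 in the knockdowns over time. At equal medians Hspa5 was -0.064, Canx -0.17, Xbp1 -0.043 and Ddit3 -0.057 at 5 days, Hspa5 1.13, Pdia6 0.47 and Ddit3 0.68 in the controls, and Calr 0.40 and Pdia6 0.30 in the knockdowns. Of the genes of other lists, Stt3a was 0.018, Prkcsh 0.70, Map3k5 0.26, Ddit4 0.12 and Sec61b 0.38 as deposited, and Ssr1 -0.039, Prkcsh 0.54, Map3k5 0.10 and Sec61b 0.23 at equal medians. With the mean of probe sets Canx was -0.055 between knockdown and control at 1 day. Under that setting Xbp1 was -0.088 at 5 days, Hsp90b1 -0.010 and Pdia3 -0.099 in the controls, and Hsp90b1 -0.046 and Pdia3 -0.26 in the knockdowns. With the scanner as a block Canx was -0.025, Pdia6 -0.28 and Xbp1 -0.053 at 5 days, and Pdia3 -0.26 in the knockdowns. With the hybridisation control set as a block Xbp1 was -0.33 in the controls, and Hspa5 -0.0014, Calr 0.061, Xbp1 -0.15 and Ddit3 -0.19 in the knockdowns. With array weights Hsp90b1 was 0.031, Calr 0.18, Pdia3 0.24 and Ddit3 -0.24 at 5 days, Xbp1 -0.36 in the controls and Calr 0.10 in the knockdowns. The cause was not tested.

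With 1 array left out, the ranges at 5 days were -0.059 to 0.34 for Hspa5, -0.17 to 0.0038 for Hsp90b1, -0.43 to 0.10 for Calr, -0.016 to 0.10 for Canx, -0.57 to 0.17 for Pdia3, -0.86 to 0.10 for Pdia4, -0.060 to 0.25 for Pdia6, -0.063 to 0.18 for Xbp1 and -0.17 to 0.14 for Ddit3. At 1 day the ranges that spanned 0 were -0.12 to 0.032 for Hsp90b1, -0.032 to 0.073 for Calr and -0.076 to 0.0076 for Pdia3. They were -0.31 to 0.32 for Xbp1 in the controls over time, and in the knockdowns -0.046 to 0.35 for Hspa5, -0.27 to 0.26 for Calr, -0.18 to 0.56 for Pdia3 and -0.012 to 0.33 for Ddit3. The replicate block, with numbers that did not pair the samples, changed no call: 0 probe sets passed in each comparison of knockdown and control, and Pdia4 had -0.54 at 5 days (limma, adjusted p = 0.999788). The number of arrays, 3 a group, limits the precision.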
